A study of Sus scrofa with 8 samples.

Results

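Ribosomal protein transcripts were read in whole blood of 8 female, conventional Clawn miniature pigs aged 8 to 9 months. A control diet of standard dry feed went to 4 of them. The other 4 ate equal weights of that feed, water and SDW, which stands for shochu distilled water. Blood was drawn at 12 weeks by the design text, but in each diet the descriptions give 14, 15, 16 and 17 weeks for animals 1, 2, 3 and 4. Each animal gave 1 array with probes of 60 bases for pig transcripts. The members were taken by their array annotation: every probe described as a ribosomal protein and as neither mitochondrial nor kinase, also where the name rests on similarity to another species. This gave 132 of 43603 probes, which carry the names of 64 products. There were 76 probes for the large subunit, 55 for the small subunit and 1 for neither, an enzyme described as a methyltransferase of protein L11.

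Every cytosolic ribosome joins a small subunit, which reads the mRNA, to a large subunit, which forms the peptide bond. Each subunit holds ribosomal RNA and one copy of most of its proteins, and the stalk proteins P1 and P2 are held by P0. The mRNAs of these proteins begin with a run of pyrimidines that lets nutrient signalling through mTOR set their translation together. In blood, these mRNAs are known to be abundant in lymphocytes, and red cell precursors lose their ribosomes as they mature. In bulk blood, fewer cells of a type and less RNA per cell cannot be told apart.

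The probe sequences show what each reading can be taken to measure, and the sets below carry the findings. They are written 5′ to 3′ as the array design lists them. First, the 3 RPS21 probes overlap, and the 41 bases common to all of them are in capitals.
RPS21 A_72_P015451: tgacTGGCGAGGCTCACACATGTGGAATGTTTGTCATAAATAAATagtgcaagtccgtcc
RPS21 A_72_P292934: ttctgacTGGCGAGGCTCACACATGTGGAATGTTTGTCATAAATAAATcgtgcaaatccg
RPS21 A_72_P146446: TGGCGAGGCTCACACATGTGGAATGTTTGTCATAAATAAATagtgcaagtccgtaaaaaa

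A pair for RPSA, the laminin receptor protein of the small subunit, is shown because its first probe varied least between animals. A pair for RPL36A is shown because it varied most among the proteins read below. The capitals mark the shared runs, 36 bases in the RPSA probes and 21 bases in the RPL36A probes.
RPSA A_72_P004916: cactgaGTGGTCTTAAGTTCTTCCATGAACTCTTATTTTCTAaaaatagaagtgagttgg
RPSA A_72_P209232: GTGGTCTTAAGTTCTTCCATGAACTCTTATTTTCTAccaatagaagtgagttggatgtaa
RPL36A A_72_P066681: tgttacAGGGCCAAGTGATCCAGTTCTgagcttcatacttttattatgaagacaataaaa
RPL36A A_72_P077981: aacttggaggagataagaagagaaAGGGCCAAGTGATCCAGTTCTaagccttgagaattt

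The next set holds probes of one name whose readings lay far apart. The RPL37 and RPS26 pairs share runs of 22 and 18 bases. A probe from a pig RPLP1 record shares 22 bases with a cDNA probe that the array leaves without a gene name.
RPL37 A_72_P031251: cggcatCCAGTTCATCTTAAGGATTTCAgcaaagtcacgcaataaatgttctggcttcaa
RPL37 A_72_P174431: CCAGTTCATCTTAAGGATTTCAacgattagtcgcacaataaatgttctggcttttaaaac
RPS26 A_72_P078081: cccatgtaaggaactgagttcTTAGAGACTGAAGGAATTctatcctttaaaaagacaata
RPS26 A_72_P155991: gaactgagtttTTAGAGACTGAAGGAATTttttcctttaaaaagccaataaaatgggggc
RPLP1 A_72_P175871: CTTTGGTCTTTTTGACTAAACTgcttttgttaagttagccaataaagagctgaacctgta
unnamed cDNA A_72_P141831: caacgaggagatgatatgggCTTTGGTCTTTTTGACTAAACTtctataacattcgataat

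The last set holds the RPL27 probe with the smallest p-value of the diet comparison among members, beside a probe that the array describes as karyopherin beta 3 and that shares 23 bases with it. It also holds an RPS28 probe whose first 49 bases are the reverse complement of an unnamed cDNA probe, and the RPL38 probe with its AATAAA, the usual signal for polyadenylation, in capitals.
RPL27 A_72_P227992: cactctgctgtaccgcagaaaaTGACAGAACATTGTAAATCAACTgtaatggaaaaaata
karyopherin beta 3 A_72_P416848: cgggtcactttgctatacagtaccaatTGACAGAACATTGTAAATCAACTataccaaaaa
RPS28 A_72_P146681: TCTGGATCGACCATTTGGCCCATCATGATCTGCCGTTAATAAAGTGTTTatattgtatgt
unnamed cDNA A_72_P327878: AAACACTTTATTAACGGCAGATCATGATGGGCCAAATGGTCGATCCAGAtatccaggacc
RPL38 A_72_P016041: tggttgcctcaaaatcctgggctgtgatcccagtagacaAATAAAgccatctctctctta

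Across the series, between 35.2% and 43.6% of the probes on an array were well above background by the scanner's flag, and no spot was saturated. Probes entered the test if 4 or more of the 8 arrays had them well above background, and these 17355 probes are called kept. A level is the log2 of a probe's intensity after division by its array's 75th percentile. Having 8 arrays limits the precision of every value. The 8 arrays lay on 3 slides: slide 1 held control 3, SDW 2 and SDW 3, slide 2 held control 2, control 4 and SDW 1, and slide 3 held control 1 and SDW 4 and was scanned on another day. Blood cell markers were present, with CD3D of T cells between 4.75 and 6.25 and ITGA2B of platelets between 4.58 and 5.40.

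Most ribosomal protein probes gave a signal, and how they were annotated went with it. Of the 132 probes, 88 (66.7%) were kept, against 39.8% of all probes on the array. In all, 83 were well above background on all 8 arrays, 36 on none and 13 on 1 to 7 arrays. The 41 probes built on pig mRNA records were all above background on all 8 arrays. Of 52 probes named by close homology (a cDNA cluster that covers at least 30% of the named protein), 29 were so on all 8 arrays and 16 on none. Of 39 probes named by weak homology, which cover less of the protein or carry a bacterial or chloroplast name, 13 were so on all 8 arrays and 20 on none. That grouping by record was made after the values were seen.

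**Figure D1:**
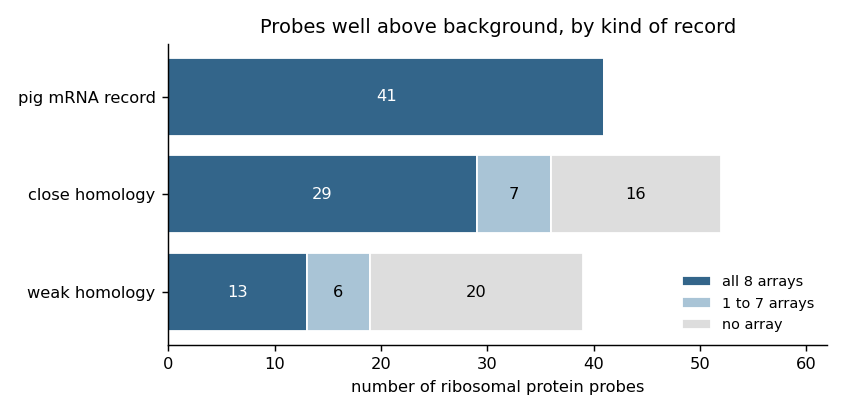
Number of ribosomal protein probes (horizontal axis) by kind of record (rows), with colours for the number of arrays on which they were well above background. All 41 pig record probes lie in the class of all 8 arrays, while 16 of 52 close and 20 of 39 weak homology probes lie in the class of no array.

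The weak group bears on what may be called a cytosolic ribosomal protein gene here. Of its members, 14 carry a 30S, 50S or chloroplast name, and 6 of these 14 were kept. Its kept probes were also dimmer than those of the pig records, with mean levels from -2.31 to 5.26. Their median was 0.90, against 8.97 for the pig records and 0.81 over all kept probes. Each protein below was therefore read from the brightest probe, by mean level, among its kept pig record and close homology probes. This gave 39 proteins, 25 of the large and 14 of the small subunit. A total of 15 products had no kept probe at all, among them RPS19, the protein most often mutated in Diamond-Blackfan anaemia. RPS6, the phosphorylated protein at the end of mTOR signalling, was another, but its only probe is a weak homology probe with a match of 6%. Others of the 15, such as RPL4, RPL19 and RPL32, also had weak homology probes only and may have no true probe here. Probes of the 15 were not well above background on enough arrays, which does not show that the transcripts were low in blood.

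Probes of one product mostly varied together over the arrays when they shared sequence, and often did not when they shared none. Over the 8 arrays, 16 pairs of kept probes of one product that share a run of at least 16 bases had Pearson correlations from 0.69 to 1.00, with a median of 0.99. The 30 pairs that share no such run ranged from -0.52 to 0.93, with a median of 0.63. Among pairs that share a run, the lowest were the printed RPL37 pair (0.69) and RPS26 pair (0.70), whose levels also lay far apart. These correlations describe the same 8 hybridisations and carry no test. In the overlapping RPS21 set printed above, the differences between diets (SDW minus control, log2) were 0.01, -0.07 and -0.03. The brightness of a probe depends on its own bases as well as on the RNA, so levels of different probes are not ranked as transcript amounts.

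The printed pairs of unlike reading gave the following values. The RPL37 probe A_72_P031251 had a control level of 9.65 ± 0.33 and an SDW level of 9.50 ± 0.36 (mean ± SD of 4 animals each). For its partner A_72_P174431 these were -1.23 ± 0.33 and -0.96 ± 0.63, with 7 arrays well above background. In the RPS26 pair, A_72_P078081 averaged 9.65 over all animals and A_72_P155991 averaged -1.12. Both pairs thus have 1 bright and 1 dim probe under a single gene name, and the cause was not tested.

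RPLP1 shows the same from the side of an unnamed probe. RPS28 is a different case, because its unnamed probe lies on the opposite strand. The pig RPLP1 record probe averaged -0.22, and the unnamed cDNA probe that shares 22 bases with it averaged 10.68. Their differences between diets were -0.13 and -0.12, but that of the RPLP1 record probe turned to 0.12 without SDW 3. The RPS28 probe A_72_P146681 averaged 10.15, while the unnamed probe complementary to 49 of its bases averaged -0.33 and ranged from -1.39 to 1.34 between animals. As these probes are written for opposite strands, their gap is no disagreement between probes that share a run. In all, 49 of the 132 members shared a run of at least 16 bases with another probe on the same strand, none of them with a member of a different product. On the opposite strand, 17 members had a complementary run of that length with another probe.

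A sequence feature was more frequent among the members than on the array, though most members lacked it. The motif AATAAA stood in 47 of the 132 member probes (35.6%), against 12.1% of all 43603 probes. Over kept probes it stood in 43.2% of the 88 members and 17.3% of all 17355. Among close homology probes it stood in 65.6% of the 32 kept and 35.0% of the 20 not kept. The 41 pig record probes had it in 34.1%. Among weak homology probes it stood in 20.0% of the 15 kept and 8.33% of the 24 not kept. Its reverse complement, TTTATT, stood in 4.55% of members and 4.63% of all probes. Matches are letters in a window of 60 bases and describe the probe designs.

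No ribosomal protein transcript was called different between the diets. The limma test called 0 of 88 member probes at an adjusted p of 0.05, and over all 17355 kept probes it called 0 as well (0.0%). At an unadjusted p of 0.05, it gave 0 members against 251 of all kept probes (1.45%). In 0 members did the animals of the diets not overlap, against 171 of all kept probes (0.985%). The smallest unadjusted p among members was 0.072, with an adjusted p of 1.0. A p that misses the threshold does not show that the diets act alike.

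The differences were small beside the spread between animals. The median difference over the 88 member probes was -0.06, with 30 positive and 58 negative, against a median of 0.02 over all kept probes with 52.9% positive. That split depended on the scaling, since quantile normalization gave 42 positive and a median of -0.01, and centring on the array median gave 40 positive and -0.02. The background moved too. All kept probes had a median of 0.01 (52.3% positive) with quantile normalization and 0.05 (58.5% positive) with median centring. The members' median thus stayed below that of all kept probes under both. The large subunit probes had a median of -0.06 (15 positive, 40 negative), which became 24 positive with quantile normalization and 22 with median centring. The small subunit probes had a median of -0.03 (14 positive, 18 negative), which turned to 0.02 with quantile normalization and 0.01 with median centring. Within slides 1, 2 and 3 the median difference of the members was -0.14, 0.09 and -0.14. Leaving out 1 animal moved it between -0.11 (without control 4) and 0.03 (without control 3). Without SDW 4 it turned to 0.01, and it was -0.01 without control 2, -0.08 without control 1 and -0.09 without SDW 1.

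The pig record probes of the large subunit leaned one way without any of them passing the test. All 19 had a negative difference, from -0.49 to -0.00 with a median of -0.13, while 52.9% of all kept probes were positive. These 19 probes stand for 11 proteins, and some overlap in sequence, so they are not separate readings. Of the 19, 5 turned positive with quantile normalization, 4 with normexp and 4 with median centring. In the small subunit, 14 of 22 such probes were negative and 8 positive. Leaving out 1 animal moved the large subunit median between -0.24 (without control 1, 0 of 19 positive) and -0.04 (without SDW 4, 8 of 19 positive). It was -0.05 without control 3 (6 of 19 positive) and -0.07 without control 2 (4 of 19 positive). This subset was chosen after the values were seen.

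**Figure D2:**
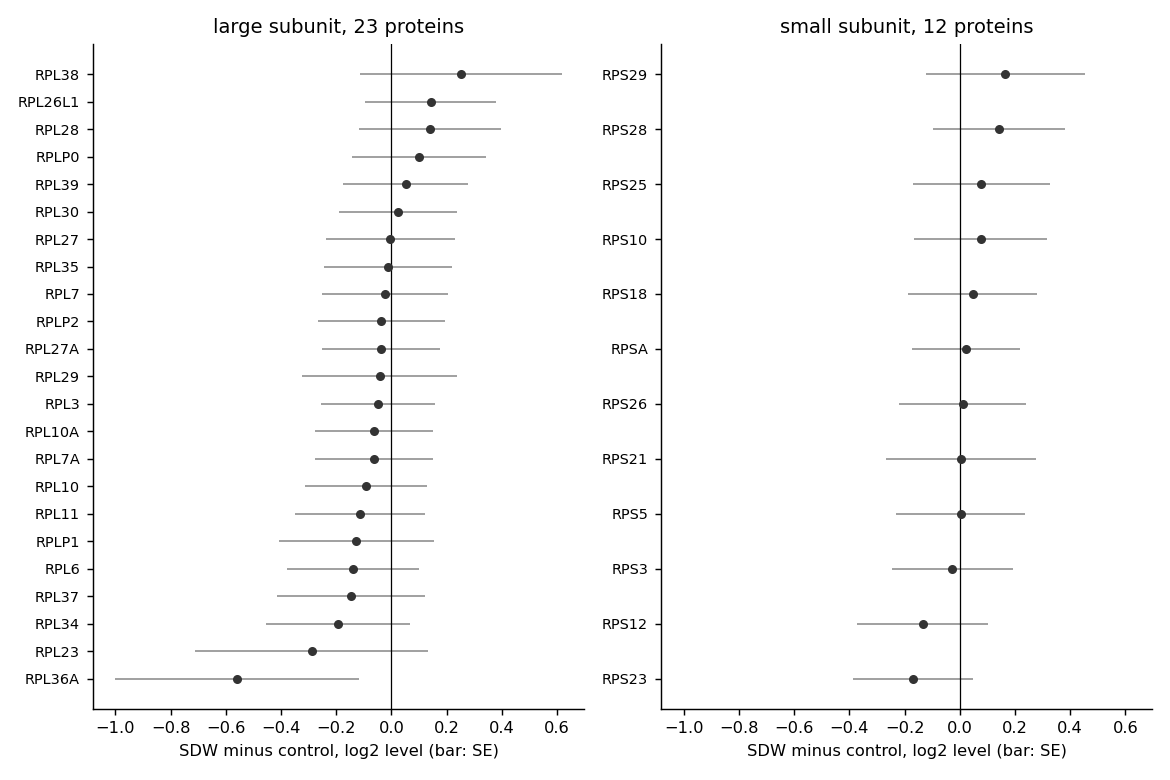
SDW minus control difference in log2 level (horizontal axis) for 23 large and 12 small subunit proteins, 1 probe each; points are differences and bars 1 SE of the limma fit. RPL36A lies lowest at -0.56 and RPL38 highest at 0.25, and of 35 differences 15 are positive, a split that changes with the scaling.

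Among the stalk proteins, RPLP2, an acidic protein that recruits elongation factors, was read at 11.57, 11.36, 11.65 and 11.12 in controls 1 to 4 and at 11.27, 11.10, 11.59 and 11.61 in SDW animals 1 to 4. The groups overlapped, and the difference was -0.04 ± 0.23 (SE, n = 4 against 4; limma adjusted p 1.0). RPLP0, the base of the stalk, was read at 3.17, 2.83, 3.01 and 2.41 in controls and 3.10, 3.18, 2.78 and 2.76 in SDW animals. Control 4 was lowest and the groups overlapped, with a difference of 0.10 ± 0.24. RPLP1, the partner of RPLP2, had a difference of -0.13 ± 0.28, and its lowest value, -1.03, was in SDW 3. Without SDW 3 the RPLP1 difference was 0.12.

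RPL11, a member of the particle with 5S RNA that can bind MDM2, was read at 9.54, 9.98, 10.32 and 9.96 in controls and 9.80, 9.93, 9.99 and 9.62 in SDW animals. Control 3 was highest, the slide 3 animals control 1 and SDW 4 were lowest, and the difference was -0.12 ± 0.23. Its partner RPL5 had a weak homology probe only, with a difference of -0.09 ± 0.25.

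RPL36A, a large subunit protein, had the largest difference of the 39 proteins. Its probe A_72_P066681 was read at 5.83, 6.37, 7.58 and 6.49 in controls and 5.63, 7.06, 5.83 and 5.50 in SDW animals. Control 3 and SDW 2 stood above the other animals, so both diets held a high animal and the groups overlapped. The difference was -0.56 ± 0.44 (unadjusted limma p 0.235, adjusted p 1.0), and the second probe gave -0.49 ± 0.45. Without control 3 the first became -0.22, and without SDW 2 it became -0.91.

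RPL23, a large subunit protein that can also bind MDM2, was read at 5.78, 6.31, 7.19 and 6.73 in controls and 6.21, 7.17, 6.15 and 5.32 in SDW animals. Control 3 and SDW 2 were again highest and the slide 3 animals lowest. The difference was -0.29 ± 0.42, and its second probe, which shares 52 bases, gave -0.28 ± 0.41.

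On the positive side, RPL38, a large subunit protein needed for translation of certain Hox mRNAs, had the largest difference of the 39 proteins. It was read at 7.93, 8.40, 7.82 and 7.33 in controls and 8.57, 8.43, 8.37 and 7.12 in SDW animals. SDW 1 to 3 lay close together, with control 2 among them, and SDW 4 lay below every other animal. The difference was 0.25 ± 0.37. Leaving out 1 animal moved it between 0.07 (without control 4) and 0.59 (without SDW 4). RPS29, a zinc-binding small subunit protein, had 0.17 ± 0.29, RPS28 had 0.14 ± 0.24, RPL26L1 had 0.14 ± 0.24 and RPL28 had 0.14 ± 0.26. On the negative side, RPL34 had -0.19 ± 0.26.

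The brightest probes of each subunit, with RPS28 above among them, gave differences smaller than their SE. In the large subunit, RPL27A had -0.04 ± 0.22, RPL35 had -0.01 ± 0.23 and RPL6 had -0.14 ± 0.24. In the small subunit, RPS3, which lies at the mRNA entry, had -0.03 ± 0.22, RPS23 had -0.17 ± 0.22, RPS21 had 0.01 ± 0.27 and RPS26 had 0.01 ± 0.23. For RPS29 the values were 9.20, 9.72, 9.49 and 9.08 in controls and 10.12, 9.59, 9.48 and 8.96 in SDW animals, so SDW animals were both highest and lowest.

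Probes of one protein could disagree on the diet. Of 23 proteins with several kept probes, 10 had differences of both signs. For RPL27 the probe A_72_P227992 was read at 1.78, 2.93, 2.52 and 2.53 in controls and 3.35, 3.02, 2.86 and 2.80 in SDW animals. Control 1 was lowest and the groups overlapped only through control 2. Its difference was 0.57 ± 0.28 (unadjusted limma p 0.072), while the pig record probes of RPL27 gave -0.01 ± 0.23 and -0.00 ± 0.23. That probe shares runs of 16 to 23 bases with 8 probes of other names, printed above for the longest, so it may not read RPL27 alone.

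RPL37 had probes at -0.59 ± 0.43, 0.27 ± 0.34 and -0.15 ± 0.27. RPS26 had differences from -0.17 to 0.15, RPSA from -0.29 to 0.02, RPL6 from -0.42 to -0.14 and RPL7 from -0.28 to -0.02. The widest gaps, in RPL37 and RPL27, each involved a probe far dimmer than the brightest of that protein. Within RPSA, the dimmest of 4 probes gave -0.29 ± 0.28 and the brightest 0.02 ± 0.20.

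With slide as a block in the fit, 0 members were called and 6 of 88 reached an unadjusted limma p of 0.05, against 6.6% of all kept probes. Those 6 were the dimmest RPL27 probe (0.66 ± 0.22), both RPL36A probes (-0.79 ± 0.31 and -0.71 ± 0.31), a pig record probe of RPL6 (-0.52 ± 0.22) and weak homology probes named RPL6 and RPS7. The smallest adjusted p was 0.731. The share of members was near that of all kept probes.

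The spread between animals differed from member to member. The median SD within diets was 0.32 over the 88 member probes, 0.29 over pig record and close homology probes and 0.43 over all kept probes. A range of at least 1 log2 unit over the 8 animals was seen in 37 members (42.0%) and in 67.1% of all kept probes. These are descriptions, and 60 of the 88 members had a mean level of at least 5.

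Among the 39 proteins, each read from its brightest probe, RPSA had the smallest SD within diets, 0.10. Its other 3 probes had 0.13, 0.21 and 0.39. The brightest was read at 9.55, 9.59, 9.64 and 9.36 in controls and 9.61, 9.60, 9.56 and 9.45 in SDW animals. All animals lay within 0.28 log2 units, and the difference was 0.02 ± 0.20. RPL3, which lies at the peptide-forming centre, had an SD of 0.15, and RPL7A had 0.18. At the other end, RPL36A had 0.73, RPL23 had 0.68 and RPL38 had 0.57.

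**Figure D3:**
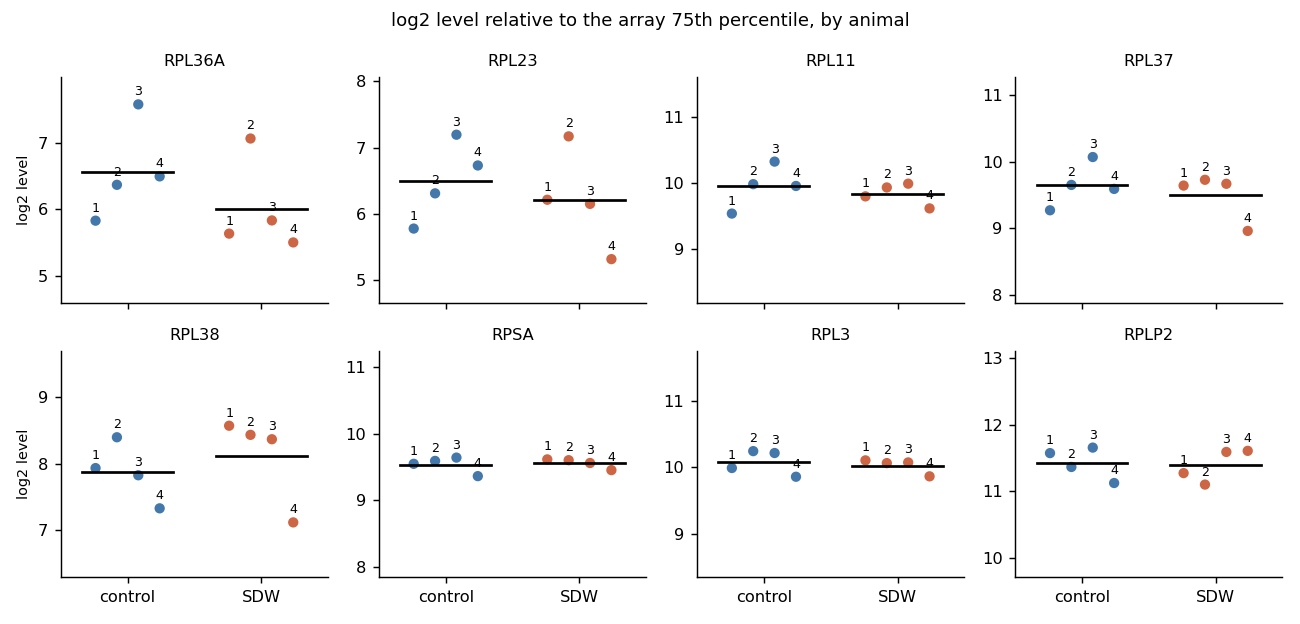
Log2 level relative to the array's 75th percentile (vertical axis, equal span in each panel) by diet for 8 ribosomal proteins; points are animals with their replicate number and lines are means of 4. RPL36A and RPL23 have control 3 and SDW 2 at the top, RPSA and RPL3 hold all animals close together, and the diets overlap in every panel.

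Many members, but not all, lay on the same side of their own means in an animal. The larger side held from 52 of 88 probes in SDW 1 to 72 of 88 in control 3. The median deviation of the 88 probes from their own means was -0.11, 0.16, 0.20 and -0.19 in controls 1 to 4. In SDW animals 1 to 4 it was 0.07, 0.04, 0.07 and -0.30. Over all kept probes it was -0.01, 0.04, 0.05 and -0.10 in controls and 0.12, 0.01, -0.02 and -0.05 in SDW animals. The 15 weak homology members had the other sign in control 1 (0.12), control 3 (-0.04) and SDW 2 (-0.03), and the sign of the 88 in the rest. Over the 88 members SDW 4 was lowest, and 3 animals, SDW 4, control 4 and control 1, lay below 0. Under quantile normalization control 4 turned to 0.04, SDW 3 turned to -0.01, control 1 moved to -0.24 and SDW 4 was at -0.30. With normexp SDW 3 turned to -0.10.

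**Figure D4:**
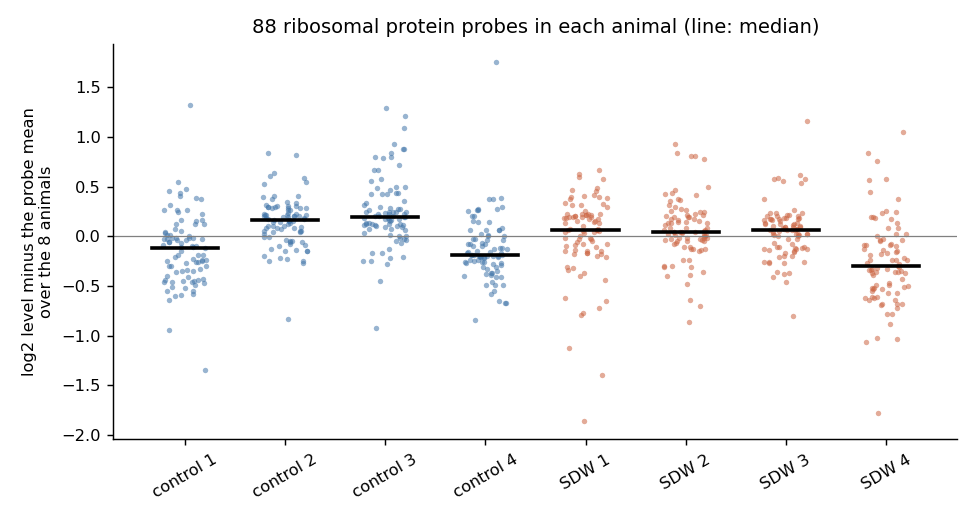
Log2 level of each of 88 ribosomal protein probes minus its mean over the 8 animals (vertical axis), by animal; points are probes and lines medians. SDW 4 has the lowest median at -0.30, and the diets overlap, with controls between -0.19 and 0.20; the signs of control 4 and SDW 3 turn with quantile normalization, and that of SDW 3 with normexp.

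SDW 4 and control 1 are the animals of slide 3. The mean of slide 3 minus the mean of the other arrays had a median of -0.29 over the members and was negative in 67 of 88, against a median of -0.05 over all kept probes. The sign held with quantile normalization (-0.36, against -0.09 over all kept probes), normexp (-0.29 against -0.04) and median centring (-0.50 against -0.27). The F test over slides called 1949 of 17355 kept probes (11.2%) and 2 of 88 members, a share below that background. The count over all kept probes fell to 355 without control 1, 986 without control 2, 1202 without control 3 and 1010 without SDW 4. The weak homology probe named RPL6 was among the called members, with slide 3 minus the others at 1.58 ± 0.35 (adjusted p of the limma F test 0.015), opposite in sign to the members' median. Only 2 animals lie on slide 3, so slide, scan day and these animals cannot be told apart.

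Blood cell markers also varied between these animals. Listed genes were found by gene symbol, which could be given to 2978 of 43603 probes and to 1681 of the kept ones. A listed gene not counted as kept may thus lack a named probe, so its transcript was not shown to be absent. Of 21 neutrophil genes listed, 6 were kept, all 6 with a negative difference between diets (median -0.59), and 0 were called. The median was -0.30 without control 1 and -0.39 without SDW 2, with all 6 still negative. Their summed linear level was 598 to 944 in controls and 460 to 806 in SDW animals. Their median deviation was 0.90 in control 1 and -0.25 in SDW 4. The 7 T cell genes kept of 19 summed to 60.4 to 117 in controls and 75.5 to 102 in SDW animals, with a median deviation of -0.16 in control 1 and -0.48 in SDW 4. Yet the T cell sum was the highest of its diet in these same animals, 117 in control 1 and 102 in SDW 4. The T cell genes did not move together: slide 3 minus the others ran from -1.29 (CD8A) to 1.36 (CCR7), negative in 5 of 7. The 5 platelet genes of 11 summed to 78.9 to 128 and 82.6 to 126, with deviations of -0.65 and -0.28 in those animals. The 6 monocyte genes of 11 had deviations of -0.42 and -0.16, and the 2 NK and cytotoxic genes of 10 had -0.20 and -0.68. The NK and cytotoxic sum, in which GNLY was far brighter than KLRK1, was however the highest of the SDW animals in SDW 4, at 428. The part of these markers in the levels of the members was not tested.

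Genes that work with ribosomal proteins gave no call either. A list of 20 symbols held translation factors and companion mRNAs, with RACK1 under both its names. Of these, 6 were kept, 3 with a positive and 3 with a negative difference, and 0 were called. TPT1, whose mRNA also begins with a run of pyrimidines, had -0.18. EEF1A1, the factor that brings tRNA to the ribosome, had -0.08, and EEF1G had 0.03. Of 21 genes of mTOR and ribosomal protein kinase signalling, 4 were kept, and RPS6KB1, the kinase of RPS6, had -0.34, MYC 0.16 and EIF4E 0.02, with 0 called. Of the genes for ribosome assembly, none of those listed had a kept probe with a gene symbol, which does not show that they were undetected.

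The mitochondrial ribosomal proteins build the separate ribosome of mitochondria. Of 15 kept probes, 13 had a positive difference with a median of 0.11. This count was 12 with quantile normalization and 14 with median centring. It was 10, with a median of 0.03, without SDW 2, and 10 without control 1. The median was 0.23 without SDW 4 and 0.16 without control 3. None was called, and the difference between the 2 sets was not tested. Their median SD within diets, 0.29, was close to the 0.32 of the cytosolic members.

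Among 1075 named genes outside the set, those whose pattern over the 8 arrays was most like the mean of the pig record and close homology probes were RACK1 (Pearson r 0.96), SRSF11 (0.96), INHBB (0.95), ITGB2 (0.95) and JAK1 (0.93). RACK1, a scaffold protein bound to the small subunit, was read at 9.43, 9.85, 9.90 and 9.42 in controls and 9.74, 9.72, 9.68 and 9.04 in SDW animals. SDW 4 was lowest and control 3 highest, as for the members. The points share their arrays, and the values carry no test.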

How the data were processed

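The deposited scanner files hold linear spot intensity. Their software was Agilent Feature Extraction: the file headers name release 10.1.1.1, the submitters' processing notes 9.5.3.1. The processed signal is background-subtracted and detrended within the array, per the file headers. Per the labels' protocols, Cy3 cRNA came from 0.5 µg of blood RNA. The authors' value table holds intensity values of the same arrays, with its normalization not given in the sources used here. In it, 7 of 8 columns matched another replicate of the same diet, so replicate names follow the scanner files. 

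Without control and outlier spots, the mean of a probe's spots was taken, and log2 values were set relative to the array's 75th percentile. Probes well above background on at least 4 of 8 arrays were fitted in R 4.3.3 with limma 3.58.1 (two-sided, no covariate, Benjamini-Hochberg over 17355 probes, threshold 0.05). The fit was tested on simulated data. Alternatives were normexp (offset 50), quantile and median scaling, other filters, the authors' table, slide and replicate blocks and each array left out.

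Members and lists were chosen with earlier results of these data known. Proteins were named by level, difference, SD, disagreement of probes or role; the weak homology probes, CD3D and ITGA2B fall outside that rule and were picked with their values known. In the descriptions, animals of 1 replicate number share a week across diets; the correlations of their deviations were -0.17, 0.11, 0.33 and -0.38, and only number 3 shares a slide. Each label describes 1 pig, and p-values measure the spread between these animals. No genome was used. Some genes are not reported here.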

Additional observations from a re-analysis of the deposited data

Results flagged for a closer look

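RPL37 in SDW 4, at 8.96, stood apart from SDW 1 to 3, which lay between 9.64 and 9.73. RPL38 in SDW 4, at 7.12, stood apart from 8.37 to 8.57 in the other SDW animals. The median deviation of the ribosomal protein probes in SDW 4, -0.30, stood apart from 0.04 to 0.07. Each was set apart by its gap to the nearest animal, measured against the range of the 4 SDW animals with Dixon's test. SDW 4 was the lowest SDW animal in all 3 under every scaling tried, but none of the 3 met the limit with quantile normalization, normexp or median centring. Of 64 groups tested, 3 met its limit, and chance flags about 1 in 20 groups.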

How the results depend on the processing

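The count of probes called between diets was 0 in all settings except without the arrays of slide 3, where it was 1, no ribosomal protein probe (limma adjusted p 2.77e-05). The members' median difference was -0.11 to 0.03 on leaving out 1 array. For the large subunit leaving out 1 array gave -0.12 to 0.01, and for the small subunit -0.11 to 0.06. Of 29 proteins read closely, 8 kept their sign in every setting. The replicate block gave -0.06 and changed no call between diets.

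The count of probes called for slide was 1949. It was 748 with normexp, and leaving out 1 array gave 355 to 1852, with 1 to 5 members called. Median centring called 6 members. The cause was not tested. The slide fit was not run on the authors' table, where 7 of 8 columns hold the values of another replicate than their label names. Signal over background limits 44 of 132 members, which were not kept, and 4 animals per diet limit the rest.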
